A study of Mus musculus with 9 samples.

Results

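The 4 vascular connexin genes Gja5 (Cx40), Gja4 (Cx37), Gja1 (Cx43) and Gjc1 (Cx45) were described across 3 endothelial populations sorted from fetal mouse ventricles. They were taken by gene symbol and not by a cut on a measured value, but with earlier results of these data known. They are 4 of the 41214 genes in the deposited table. All embryos carried the fluorescent reporter Nes-Gfp(Tg/0) together with the inducible recombinase Nes-CreER(Tg/0) and the Tomato allele R26(tom/+). Tamoxifen (0.1 ug), which lets the recombinase switch Tomato on, was given at E15.5, and ventricles without atria and aortic region were taken at E17.5. Every population was sorted as viable CD31+ GFP+ cells lacking Ter119 and CD45. The Arterial population (3 libraries, intramyocardial arteries and capillaries) was also Emcn-low and Tomato+. The Venous population (3 libraries, subepicardial veins) was Emcn-low, Tomato- and GFP-low. The Endocardial population (3 libraries) has no condition on Emcn or Tomato in the gate as written. Arterial and venous cells were thus separated by reporters that depend on Nes regulatory sequences, so neither gate takes all cells of a vessel type. The arterial gate is described as mixing arteries with capillaries. The sums of the 13 capillary markers overlapped between venous (5150 to 6592 CPM) and arterial libraries (5189 to 6066 CPM). Of the 13, 1 was called between them (Aplnr, higher in venous libraries), beside 1.07% of all tested genes. The labels do not say whether the 3 libraries of a population came from separate embryos or pools, so that every p-value is set against a spread between libraries that may be technical in origin.

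Connexins are membrane proteins that assemble in hexamers, the connexons. Connexons of neighbouring cells dock to form gap junction channels, through which ions and small molecules pass from cell to cell. In the vessel wall Cx40 and Cx37 are the connexins typical of arterial endothelium, Cx43 is shared by endothelium, smooth muscle, fibroblasts and working cardiomyocytes, and Cx45 is best known from vascular smooth muscle, the early heart tube and the conduction system. Different connexins can mix in a connexon or face each other across a junction, so that the set a cell expresses bears on which neighbours it can couple with.

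Each library held 12750553 to 19474419 expected counts, and levels are given as CPM, counts scaled to a common library total after TMM adjustment. The gate labels were set beside marker genes. These lists were chosen with earlier results of these data known, so the counts describe the gates and do not test them. All 15 endocardial markers tested exceeded their arterial level in endocardial libraries (adjusted p under 0.05, edgeR), beside 5.75% of all tested genes. In arterial libraries 13 of 19 arterial markers other than connexins exceeded their venous level, beside 0.31% of all tested genes. None of the 19 was below it, beside 0.76%. Emcn, the gene of the protein used for sorting, had a mean of 199 ± 38.3 CPM (SD, n = 3) in arterial libraries, against 249 ± 18.5 in venous and 679 ± 65.7 in endocardial ones. Of the 11 venous markers tested, 4 exceeded their arterial level in venous libraries, and 0 fell below it, beside 0.76% and 0.31%. Other rows go against a sharp split of the gates. In venous libraries 7 of the 15 endocardial markers exceeded their arterial level (Tbx20 among them), beside 0.76% of all tested genes. There 5 of the 11 venous markers, such as Nr2f2 and Cpe, were below and 2 above their endocardial level, beside 4.44% and 5.81%. Endocardial replicate 1 stood apart from the other two endocardial libraries on the second principal component (139.4 against 1.8 and -16.2), and member values were therefore also computed without it, which changed no call of a member. In sorted bulk RNA, fewer cells of a type and less RNA per cell cannot be told apart.

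Gene positions were taken from the mouse GENCODE release 21 models on GRCm38. In the models of Gja1, Gja4 and Gjc1 the coding sequence lies in 1 exon. Gja4 occupies chr4:127311421-127314039 on the minus strand, has 1 annotated transcript and encodes 333 residues. Gja5 spans chr3:96904693-97077416 on the plus strand with 3 coding transcripts, and all of them begin their coding sequence at 97050629. These models encode 358, 368 and 81 residues. Its most distant upstream exon shares 165 bases with an exon of Gpr89 on the opposite strand, and reads from those bases could belong to either gene because the strandedness of the libraries is not given. Gja1 spans chr10:56377330-56402513 on the plus strand and encodes 382 residues. Gjc1 spans chr11:102799579-102819700 on the minus strand and encodes 396 residues.

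Sequences upstream of the start site are shown for the 3 members matched in the RefSeq promoter table used (GRCm38.p6), to show the letters next to genes that differed in their pattern across the populations. Gjc1 was not matched in it. Each is the 250 bases before the annotated start, read 5′ to 3′ on the gene's strand, from chr3:97032152-97032401 (plus) for Gja5, chr4:127314040-127314289 (minus) for Gja4 and chr10:56377050-56377299 (plus) for Gja1. Capitals mark the letters matched by the motifs searched.
Gja5: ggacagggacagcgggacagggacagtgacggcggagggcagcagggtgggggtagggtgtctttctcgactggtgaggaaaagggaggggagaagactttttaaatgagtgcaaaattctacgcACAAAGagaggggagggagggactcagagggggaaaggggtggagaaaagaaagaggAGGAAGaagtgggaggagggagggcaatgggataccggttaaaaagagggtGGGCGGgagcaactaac
Gja4: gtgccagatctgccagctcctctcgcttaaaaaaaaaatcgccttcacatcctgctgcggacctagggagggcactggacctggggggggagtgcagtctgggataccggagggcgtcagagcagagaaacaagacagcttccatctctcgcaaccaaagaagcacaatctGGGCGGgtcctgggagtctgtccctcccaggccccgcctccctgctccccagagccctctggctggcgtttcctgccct
Gja1: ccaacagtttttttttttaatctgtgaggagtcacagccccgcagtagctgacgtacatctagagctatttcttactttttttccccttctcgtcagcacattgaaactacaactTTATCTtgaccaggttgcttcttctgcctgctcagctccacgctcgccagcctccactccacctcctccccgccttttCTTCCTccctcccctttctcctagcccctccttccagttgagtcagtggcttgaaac

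A set of short letter patterns was searched on both strands of windows that run from 250 bases before to 50 bases after the start. The Sp/Klf pattern GGGCGG was found in Gja5 (position -17 from the start) and in Gja4 (-79), and 35.7% of all 32851 RefSeq windows hold it. The ETS pattern AGGAAG was found in Gja5 (-68) and, on the other strand, in Gja1 (-57), and 35.4% of windows hold it. The SOX pattern ACAAAG was found in Gja5 and in neither of the other genes (-125), with a share of 18.7% over all windows. The GATA pattern AGATAA was found in Gja1 and in neither of the other genes, on the other strand (-135), with a share of 11.2%.

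Other patterns had no match in the 3 windows. They were the T-box core GGTGTG, which is held by 19% of all windows, and the Nkx2-5 pattern CACTTNA, held by 11.5%. They also included a second SOX core, ACAATG, at 12.6% of windows and the RBPJ pattern of Notch signalling, GTGGGAA, at 6.38%. The Hey and Hes box CACGTG (7.15% of windows), the COUP-TF site AGGTCA (16.3% of windows) and the TATA box TATAAA (13.6% of windows) were likewise without a match. This says only that these letters are not in the windows, and a match describes letters, not a bound site.

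Gja5 was the most arterial of the 4 genes. It encodes Cx40, a large-conductance connexin of arterial endothelium, atrial muscle and the conduction system. Arterial replicates 1, 2 and 3 had 59.4, 84.3 and 100.4 CPM. Venous replicates 1, 2 and 3 had 2.72, 5.87 and 4.61 CPM. Endocardial replicates 1, 2 and 3 had 5.35, 3.39 and 4.41 CPM. Every arterial library lay far above all other libraries, and the venous and endocardial libraries overlapped. The low groups were not at 0, since each of their libraries held 46 to 95 counts. The arterial, venous and endocardial means were 81.4 ± 20.7, 4.40 ± 1.58 and 4.38 ± 0.98 CPM (SD, n = 3 each).

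Arterial libraries exceeded venous libraries in Gja5 by 4.21 ± 0.34 on the log2 scale (SE), 18.5-fold (edgeR adjusted p = 2.86e-06). By this comparison, Gja5, Gja4 and Gja1, 3 of the 4 members, were higher in arterial libraries, against a background of 1.07% of the 17103 tested genes called in either direction, 0.31% higher and 0.76% lower in arterial libraries. Against endocardial libraries the Gja5 difference was 4.21 ± 0.34, 18.5-fold (edgeR adjusted p = 2.57e-07). These contrasts share the arterial libraries and are not independent. Venous and endocardial libraries differed by 0.0058 ± 0.32 (edgeR adjusted p = 0.995), with a 95% interval from -0.67 to 0.68, and differences of that size in either direction are inside the interval. Within the batches that the replicate numbers stand for, the arterial minus venous difference was 4.45, 3.84 and 4.45 on the log2 scale.

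**Figure D1:**
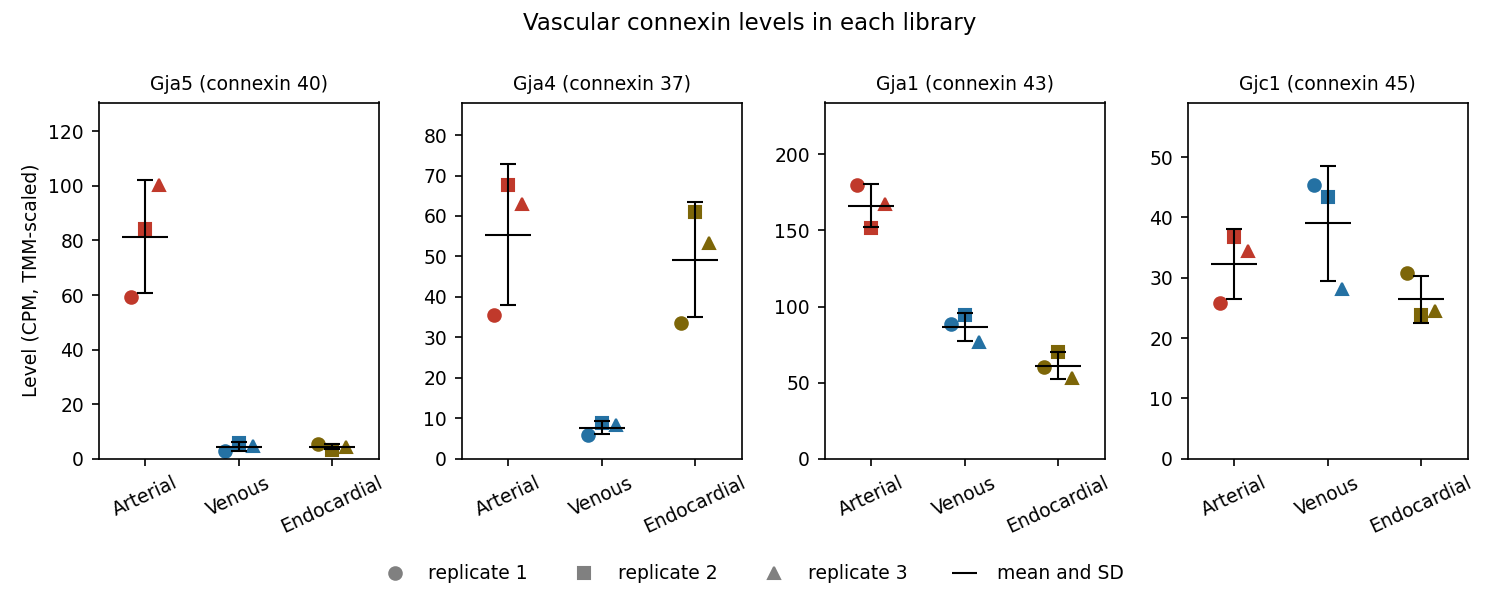
Level of each vascular connexin in each library (CPM after TMM scaling, vertical axes from 0 and separate for each gene), with the mean and SD of 3 libraries per population. Gja5 is high in arterial libraries alone, Gja4 in arterial and endocardial libraries, Gja1 steps down from arterial to venous to endocardial libraries, and the Gjc1 groups overlap.

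Gja4 had a different pattern, with 2 populations high and only the venous one low. It encodes Cx37, the partner of Cx40 in arterial endothelium. Arterial replicates 1, 2 and 3 had 35.5, 67.7 and 62.9 CPM. Endocardial replicates 1, 2 and 3 had 33.5, 60.9 and 53.2 CPM. Venous replicates 1, 2 and 3 had 5.86, 8.77 and 8.45 CPM. The arterial and endocardial libraries overlapped, and all 6 lay above every venous library. In each population replicate 1 was the lowest, so the spread within groups (SD 17.4 CPM in arterial and 14.2 CPM in endocardial libraries) followed the batch number.

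The venous level of Gja4 was below the arterial level by 2.85 ± 0.31 on the log2 scale, 7.19-fold (edgeR adjusted p = 8.3e-05). It was below the endocardial level by a similar amount, with a venous minus endocardial difference of -2.68 ± 0.31, 6.39-fold (edgeR adjusted p = 1.92e-05). Gja4 was the 1 member of 4 that passed the test in this contrast, where 10.2% of all tested genes were called (5.81% higher and 4.44% lower in venous libraries). Between arterial and endocardial libraries the difference was 0.17 ± 0.29 (edgeR adjusted p = 0.860, 95% interval -0.44 to 0.78), and within batches 1, 2 and 3 it was 0.09, 0.15 and 0.24. Leaving out Arterial replicate 2 or Endocardial replicate 1, which upsets the balance of batches, turned its sign (-0.04 in either case), with no call made. Within batches the arterial minus venous difference was 2.60, 2.95 and 2.90.

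Gja1 was graded over the populations. It encodes Cx43, the most widely expressed connexin. Arterial replicates 1, 2 and 3 had 180.1, 152 and 167 CPM. Venous replicates 1, 2 and 3 had 88.6, 94.5 and 76.8 CPM. Endocardial replicates 1, 2 and 3 had 60.4, 70.3 and 52.8 CPM. The 3 groups did not overlap, and the order arterial, venous, endocardial was seen within each batch. Mean levels were 166 ± 14.2, 86.6 ± 9.0 and 61.2 ± 8.76 CPM (SD, n = 3 each).

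The arterial excess in Gja1 was 1.44 ± 0.18 on the log2 scale over endocardial libraries, 2.72-fold (edgeR adjusted p = 2.68e-05). Gja5 and Gja1 were the 2 of 4 members called in this contrast, where the background was 11.7% in either direction, 5.92% higher and 5.75% lower in arterial libraries. Over venous libraries the excess was 0.94 ± 0.18, 1.92-fold (edgeR adjusted p = 0.0118). That call was lost without Venous replicate 1 (0.95, adjusted p = 0.0587) and without Venous replicate 3 (0.85, adjusted p = 0.101), although the difference itself stayed between 0.85 and 1.00 over the 9 fits with 1 library left out. The venous minus endocardial difference of 0.50 ± 0.18 missed the threshold (edgeR adjusted p = 0.0918, 95% interval 0.13 to 0.88), so these neighbours in the order are not separated by the test although their libraries do not overlap.

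Gjc1 varied least between the populations. It encodes Cx45, a connexin of low conductance. Arterial replicates 1, 2 and 3 had 25.8, 36.7 and 34.4 CPM. Venous replicates 1, 2 and 3 had 45.4, 43.5 and 28.1 CPM. Endocardial replicates 1, 2 and 3 had 30.9, 23.9 and 24.6 CPM. The venous libraries had the highest mean (39.0 ± 9.49 CPM, against 32.3 ± 5.75 and 26.4 ± 3.86), but Venous replicate 3 lay inside the range of the other groups. No contrast passed the test. The arterial minus venous difference was -0.27 ± 0.25 (edgeR adjusted p = 0.887, 95% interval -0.81 to 0.27), the arterial minus endocardial one 0.29 ± 0.25 (adjusted p = 0.634) and the venous minus endocardial one 0.56 ± 0.25 (adjusted p = 0.206, 95% interval 0.02 to 1.10). Within batches the arterial minus venous difference ran from -0.82 to 0.29, so its sign was not shared, while the venous minus endocardial one was 0.56, 0.87 and 0.19.

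**Figure D2:**
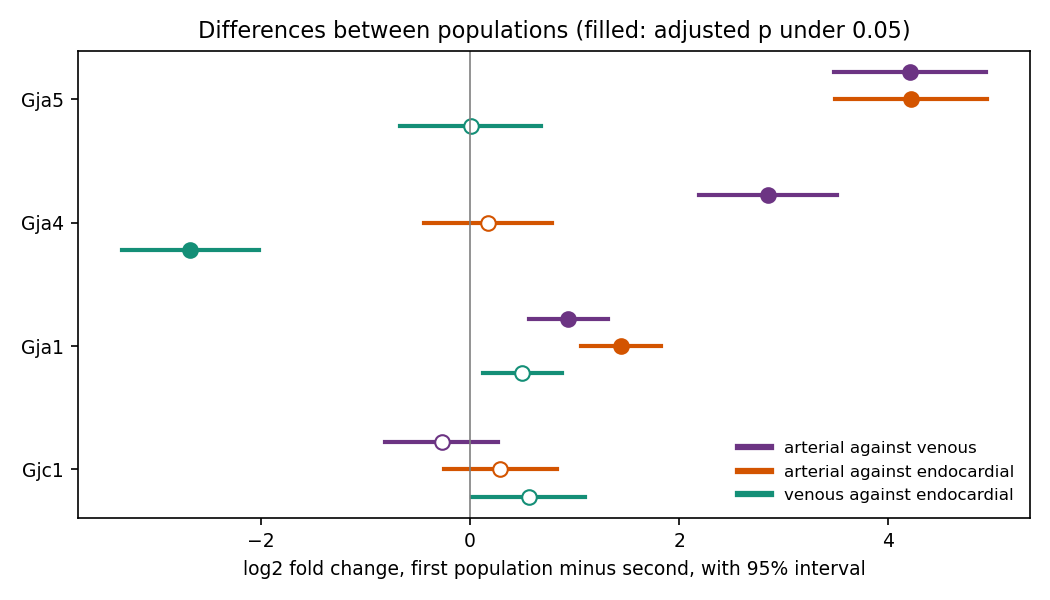
Fitted log2 difference between populations for each connexin gene, with its 95% interval (horizontal axis, first population minus second; filled points have an adjusted p under 0.05 over all tested genes). Gja5 is far to the right in both arterial contrasts, Gja4 in the arterial to venous contrast and far to the left in the venous to endocardial one, and the 3 points of Gjc1 are open.

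Compared with the mean of the arterial and venous populations on the log scale, endocardial libraries had less Gja5 (-2.11 ± 0.30, edgeR adjusted p = 8.09e-05), less Gja1 (-0.97 ± 0.16, adjusted p = 0.000372) and more Gja4 (1.25 ± 0.24, adjusted p = 0.00161). These were 3 of the 4 members, against a background of 13.9% of tested genes called in this contrast (6.91% higher and 7% lower in endocardial libraries). For Gja5 and Gja4 this mean lies between a high and a low population and matches neither of them, so that the pairwise differences describe these genes better.

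The difference between members in their arterial to venous change was tested on the ratio of their counts within each library, which does not depend on library scaling. The change of Gja5 exceeded that of Gja4 by 1.43, that of Gja1 by 3.30 and that of Gjc1 by 4.50 on the log2 scale. The change of Gja4 exceeded that of Gja1 by 1.87 and that of Gjc1 by 3.07, and the change of Gja1 exceeded that of Gjc1 by 1.2. For each of the 6 pairs the 3 arterial ratios lay above the 3 venous ratios, and the exact permutation p was 0.1 (two-sided, also 0.1 after Benjamini-Hochberg adjustment over the 6 pairs), the smallest that 3 against 3 libraries can give. By size the changes were ordered Gja5, Gja4, Gja1 and Gjc1, but this test could not bring any pair under 0.05. The 6 pairs share the same libraries and are not independent.

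The balance of Cx40 to Cx37 transcripts is given for the 3 populations as a description. Its arterial to venous difference had an exact permutation p of 0.1, and its endocardial differences were not tested. The ratio of Gja5 to Gja4 CPM was 1.67, 1.24 and 1.60 in arterial replicates 1, 2 and 3. It was 0.465, 0.669 and 0.545 in the venous replicates and 0.160, 0.056 and 0.083 in the endocardial replicates. Per kb of coding transcript the ratio was below 1 in every library, at 0.768, 0.571 and 0.734 in the arterial replicates, 0.213, 0.307 and 0.251 in the venous ones and 0.073, 0.026 and 0.038 in the endocardial ones. On either scale the 3 groups of ratios did not overlap, and endocardial libraries combined an arterial-like Gja4 level with a venous-like Gja5 level.

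To compare different genes, levels were divided by transcript length (CPM per kb). With the merged exons of each gene as its length, Gja4 led in arterial libraries (32.9 ± 10.3 CPM per kb), ahead of Gja1 (16.2 ± 1.38), Gja5 (14.2 ± 3.6) and Gjc1 (6.46 ± 1.15). The merged exons of Gja1 (10257 bases) include exons of transcripts that do not encode the protein. With the longest coding transcript as the length (3182 bases for Gja1), a choice made after the gene models were seen, Gja1 led with 52.3 ± 4.46 CPM per kb, followed by Gja4 (32.9 ± 10.3), Gja5 (22.2 ± 5.64) and Gjc1 (14.0 ± 2.48). The order of Gja1 and Gja4 in arterial libraries therefore depends on the gene model. In endocardial libraries Gja4 led on either length (29.2 ± 8.40 CPM per kb), in venous libraries Gja1 led on either (8.45 ± 0.88 and 27.2 ± 2.83), and Gja5 was the lowest of the 4 in both populations on either length. The libraries of the leading genes overlapped there in 2 cases, Gja1 with Gjc1 in venous libraries on merged exons and Gja4 with Gja1 in endocardial libraries on the coding transcript.

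The summed level of the 4 connexins was highest in arterial libraries. With merged exons it came to 69.7 ± 13.5 CPM per kb in arterial libraries, 21.6 ± 2.60 in venous ones and 41.2 ± 7.82 in endocardial ones (SD, n = 3 each), and the libraries of the populations did not overlap. An exact permutation test of the between-population F statistic over all assignments of the 9 libraries gave p = 0.00357, the smallest possible, and 0.00643 after adjustment over 9 such tests. With populations permuted only within batches, a test added after the data were seen, the exact permutation p was 0.0278 (adjusted 0.0417), the smallest that design can give. With the longest coding transcript the sums were 121 ± 14.3, 49.8 ± 6.56 and 61.0 ± 7.96 CPM per kb, with the venous and endocardial ranges overlapping there.

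The make-up of this sum differed as well. In arterial libraries, with merged exons, Gja4 took 46.3%, Gja1 24.2%, Gja5 20.2% and Gjc1 9.29% of the sum. In venous libraries Gja1 (39.2%) and Gjc1 (35.9%) together took most of it, with Gja4 at 21.4% and Gja5 at 3.55%. In endocardial libraries Gja4 alone took 69.9%, with 14.7% for Gja1, 13.4% for Gjc1 and 1.95% for Gja5. Each share differed between the populations (exact permutation test, adjusted p = 0.00643 for Gja1, Gja4 and Gjc1 and 0.0107 for Gja5). Within batches the exact permutation p was 0.0278 for Gja1, Gja4 and Gjc1 and 0.0556 for Gja5, whose call was lost. In each batch the arterial share of Gja5 was the highest, while its venous and endocardial shares did not keep the same order. With the longest coding transcript the venous shares were 54.8% for Gja1 and 33.5% for Gjc1, the endocardial share of Gja4 was 47.2% and the arterial shares of Gja1 and Gja4 were 43.8% and 26.7%. Gjc1 thus made up a larger share of the venous than of any other sum, while its own level did not pass the test between populations (exact permutation p = 0.171).

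**Figure D3:**
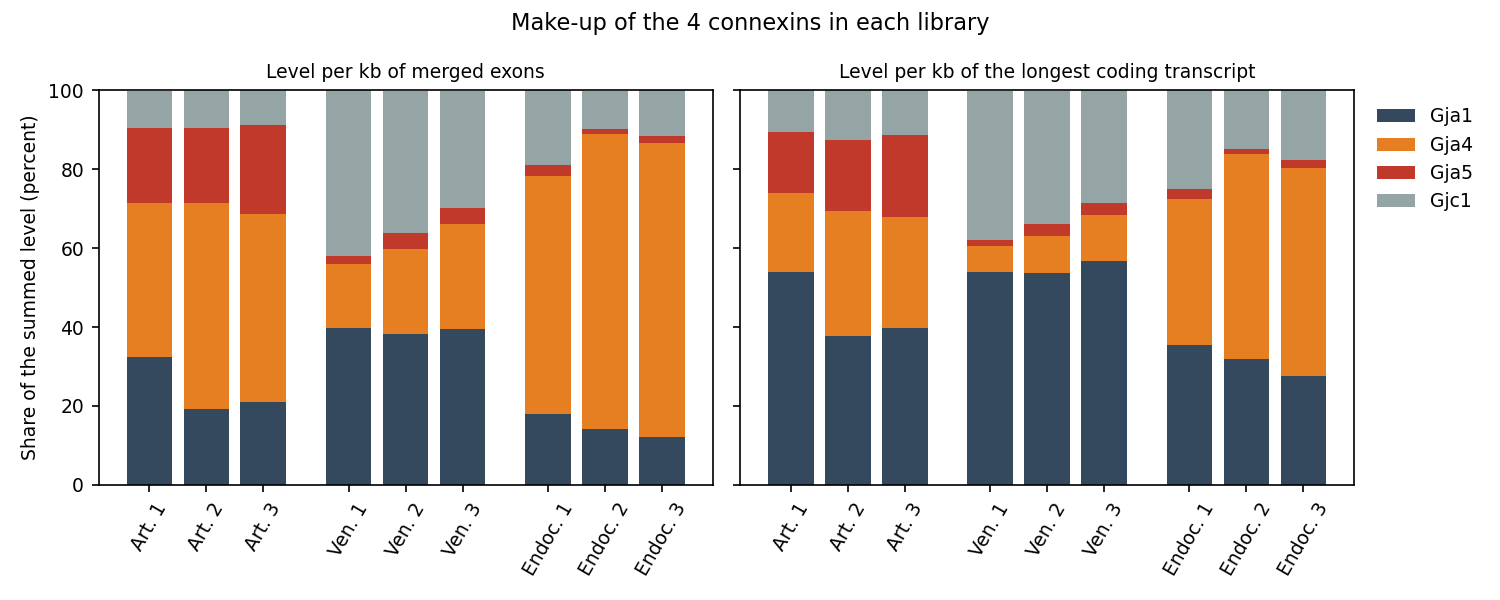
Share of each connexin gene in the summed level of the 4 genes in each library (percent of CPM per kb), with merged exons (left) or the longest coding transcript (right) as the gene length. Gja5 is visible mainly in the arterial bars, Gjc1 is widest in the venous bars and Gja4 in the endocardial bars, while the height of Gja1 depends on the length used.

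The rest of the gap junction family was low. Of the 16 other connexin genes in the table, 15 stayed under 3 CPM in every library, and Gjd3 had no count in any. The 4 members took 80.4% of all connexin counts in Endocardial replicate 1 and 90.9% to 96.6% in the other libraries. Gjc3, which encodes a connexin of myelinating glia, was the only other connexin above that level, with arterial, venous and endocardial means of 10.4 ± 3.68, 6.54 ± 4.84 and 11.4 ± 9.72 CPM. Its endocardial mean rested on Endocardial replicate 1 (22.5 CPM, against 4.40 and 7.19), and it passed no test. Gje1, Gjd4 and Gja10, which passed the filter on low counts, had counts in 8, 7 and 4 of the 9 libraries, and none of them passed a test. Among the pannexins, which form single-membrane channels related in fold to connexins, Panx2 and Panx3 also stayed under 3 CPM.

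Panx1 had 8.57 ± 3.89 CPM in endocardial, 3.46 ± 0.27 in venous and 2.55 ± 0.66 in arterial libraries. It was called higher in endocardial libraries than in the mean of the coronary populations (edgeR adjusted p = 0.0386), but the adjusted p was 0.0626 with the batch as a block and 0.0553 to 0.282 with any 1 library left out, the highest of these without Endocardial replicate 1, which had 13.1 CPM against 6.41 and 6.24. In the family of 20 connexins and 3 pannexins, 9 genes passed the filter on low counts, and the calls between arterial and venous libraries were those of Gja5, Gja4 and Gja1. The family's median difference there, 0.71 on the log2 scale against 0.03 over all tested genes, is the value of Gjd4, a gene under 3 CPM with an adjusted p of 0.982 (edgeR).

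**Figure D4:**
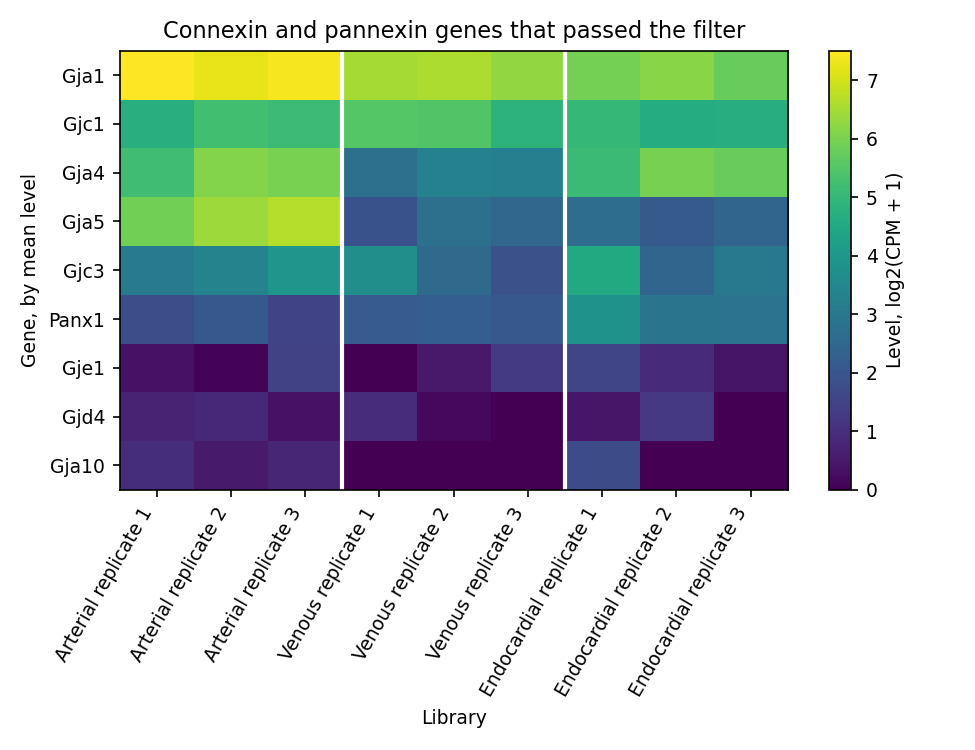
Level of the 8 connexin genes and of Panx1 that passed the filter on low counts in each library, as log2(CPM + 1), with genes ordered by mean level and white lines between the populations. The 4 vascular connexins fill the top rows, Gjc3 and Panx1 follow, and the last 3 rows stay under 3 CPM in every library.

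Genes whose products bind connexins or act on their delivery and turnover showed no call where arterial and venous libraries were compared. Of 19 such genes tested, 0 passed (edgeR) beside 1.07% of all tested genes, 0 had an unadjusted p under 0.05 and 0 were called by DESeq2, with a median difference of 0.08 on the log2 scale. Between arterial and endocardial libraries 4 were higher in arterial libraries (Cav1, Tjp1, Ctnnb1 and Cdh5) and 2 were lower (Prkca and Wwp1), beside 5.92% higher and 5.75% lower over all tested genes. Tjp1, the scaffold ZO-1 that binds the tail of Cx43, had 1205 ± 108 CPM in arterial libraries, 995 ± 121 CPM in venous ones and 411 ± 20.9 CPM in endocardial ones (arterial minus endocardial 1.55, edgeR adjusted p = 1.25e-06). Cav1, the coat protein of caveolae, had 2901 ± 525, 2754 ± 81.3 and 717 ± 141 CPM (2.02, adjusted p = 3.83e-07). The calls of Cdh5, Prkca and Wwp1 in this contrast were lost when single libraries were left out (highest adjusted p 0.11, 0.0808 and 0.135). Gja4, for which the test did not separate arterial from endocardial libraries, therefore stood beside scaffold genes that were higher in arterial libraries.

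Among 23 tested regulators of connexin genes in endothelium and heart, 2 exceeded and 3 stayed below their venous level in arterial libraries, beside 0.31% and 0.76% of all tested genes, with a median difference of -0.09 on the log2 scale. Hey1, a transcriptional repressor induced by Notch, had 100.4 ± 16.6 CPM in arterial libraries, 33.0 ± 8.89 CPM in venous ones and 19 ± 0.34 CPM in endocardial ones (arterial minus venous 1.60, edgeR adjusted p = 0.00101). Jag1, a Notch ligand, had 105 ± 25, 35.7 ± 5.5 and 58.8 ± 11.7 CPM (1.55, adjusted p = 0.00146). Tbx20, a T-box repressor of the heart, had 14.2 ± 1.08, 136 ± 36.2 and 88.0 ± 10.6 CPM (-3.26, adjusted p = 4.9e-07). Nr2f2, the COUP-TFII gene of venous identity, had 19.5 ± 2.59, 54.8 ± 7.80 and 123 ± 8.73 CPM (-1.49, adjusted p = 0.000547). The lower arterial level of Foxc1 (-1.01, adjusted p = 0.0119) was lost without Venous replicate 1 (adjusted p = 0.095).

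Between arterial and endocardial libraries, 6 of the 23 regulators were higher in arterial libraries (Hey1, Sox17, Tbx3, Dll4, Tbx2 and Jag1) and 7 were lower (Foxc1, Nr2f2, Tbx20, Foxc2, Gata4, Klf2 and Gata2), beside 5.92% and 5.75% over all tested genes. Sox17, an endothelial factor of arterial identity, had 59.1 ± 6.25 CPM in arterial libraries, 39.5 ± 5.43 CPM in venous ones and 3.43 ± 2.37 CPM in endocardial ones, so that it was also high in venous libraries, where Gja5 and Gja4 were low. The Sox17 difference was 4.11 between arterial and endocardial libraries (edgeR adjusted p = 2.12e-05) and 0.58 between arterial and venous libraries (adjusted p = 0.769). Jag1 and Gata2 lost their arterial to endocardial call when single libraries were left out (highest adjusted p 0.126 and 0.159). Of these regulators, Hey1 and Jag1 were higher in arterial libraries in both arterial contrasts, as Gja5 and Gja1 were, and the venous and endocardial libraries differed in Hey1 with an adjusted p of 0.0307 that rose to as much as 0.249 with 1 library left out.

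**Figure D5:**
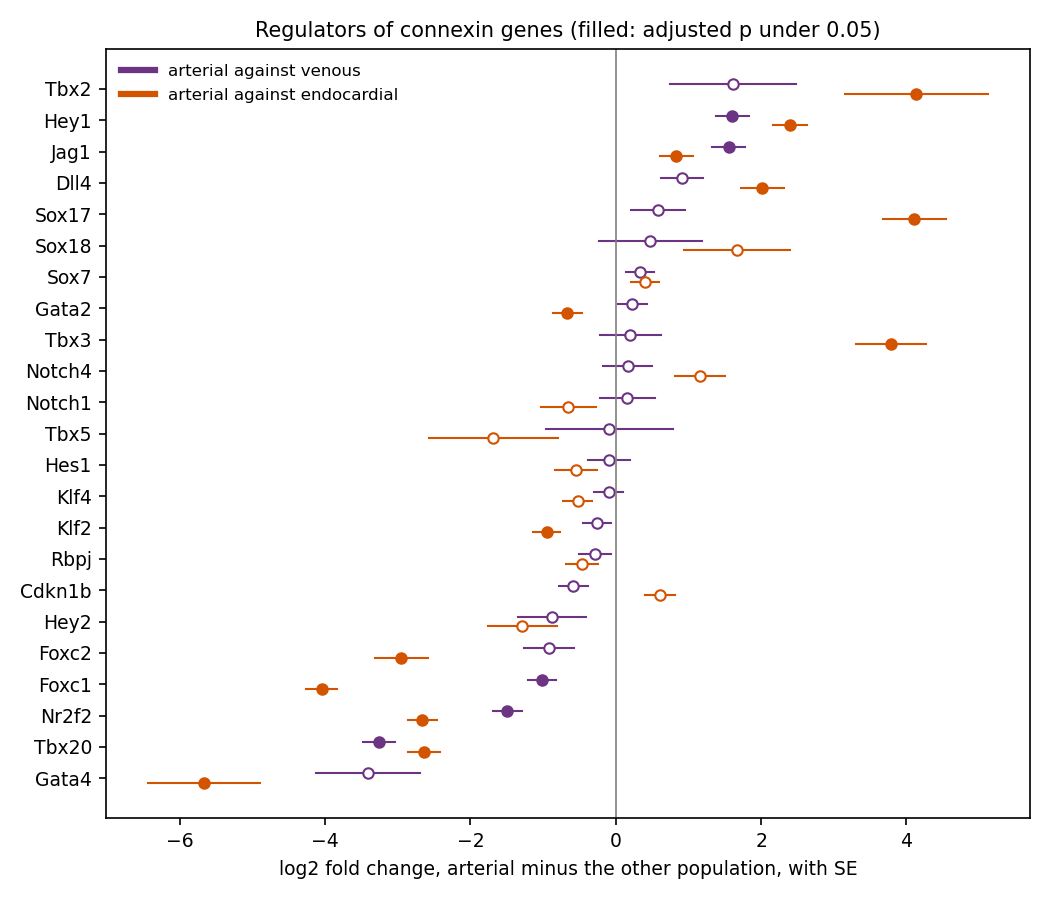
Fitted log2 difference (with SE) of the 23 tested regulators of connexin genes, arterial minus venous and arterial minus endocardial (filled points have an adjusted p under 0.05). Hey1 and Jag1 are to the right and Tbx20, Nr2f2 and Foxc1 to the left in both contrasts, while Sox17 is far to the right only against endocardial libraries.

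The genes most like each member were taken as the 5 with the highest Pearson correlation of log2(CPM + 1) over the 9 libraries, among 6937 genes of at least moderate level. For Gja5 these were Rtp4 (r = 0.98), the chemokine gene Cxcl12 (0.96), Mecom (0.95), Atp13a3 (0.95) and Hey1 (0.94). Mean Cxcl12 levels were 245 ± 100.4 CPM in arterial libraries, 22.8 ± 10.4 CPM in venous ones and 10.3 ± 2.46 CPM in endocardial ones. For Gja4 they were Slc45a4 (0.98), Grk5 (0.94), Cdyl (0.93), Ebf1 (0.93) and Tec (0.92). Slc45a4 shared the low venous level, with arterial, venous and endocardial means of 27.7 ± 9.94, 5.87 ± 1.78 and 25.7 ± 5.07 CPM.

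For Gja1 they were Tox2 (0.99), the hyaluronan receptor gene Cd44 (0.98), the lymphatic growth factor gene Vegfc (0.98), Stk17b (0.98) and Eogt (0.97). Cd44 stepped down in the same order, with arterial, venous and endocardial means of 145 ± 4.19, 58.0 ± 2.72 and 33.3 ± 3.93 CPM. For Gjc1 they were Wdr36 (0.91), Mex3b (0.91), Ube2l3 (0.89), Med21 (0.89) and Rpl7a (0.87). These are descriptions over libraries that share population and batch, and the lists depend on the measure: with Spearman's correlation 2 of 5 genes were shared for Gja1, 2 for Gja4, 0 for Gja5 and 3 for Gjc1. Among the members themselves r was 0.89 between Gja1 and Gja5, 0.54 between Gja4 and Gja5, 0.20 between Gja1 and Gja4 and -0.54 between Gja4 and Gjc1.

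Because all 4 connexins are also made by other cells of the heart, markers of those cells were measured in the same libraries. The 14 mural cell markers (smooth muscle and pericytes) summed to 1036 to 1500 CPM in arterial libraries, to 615 to 806 CPM in venous ones and to 349 to 496 CPM in endocardial ones, where Higd1b was at 0, and this order was shared by Gja1. Most of that sum came from Mcam and Abcc9, so its order does not stand for mural markers as a whole. The smooth muscle genes were low: Acta2 was at 6.98 ± 1.91 CPM in arterial and 6.60 ± 1.03 in venous libraries, and Myh11 at 4.83 ± 0.93 and 0.91 ± 1.05 CPM (log2 difference 2.40, edgeR adjusted p = 0.779). Pdgfrb went against the order of the sum, with arterial, venous and endocardial means of 14.8, 9.40 and 40.8 CPM, and was called higher in endocardial than in venous libraries. Of the 14, Abcc9 alone was called between arterial and venous libraries, beside 1.07% of all tested genes. It was higher in arterial libraries (edgeR adjusted p = 0.0473), a call lost in 6 of the 9 fits with 1 library left out (adjusted p up to 0.281, without Venous replicate 3). By DESeq2, Abcc9, Rgs5 and Kcnj8 were called there. Rgs5, Abcc9, Mcam and Kcnj8, 4 of the 14, were called higher in arterial than in endocardial libraries, beside 5.92% of all tested genes. The part of mural RNA in the levels of Gja1, Gja4 and Gja5 was not tested.

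The 15 cardiomyocyte markers were lowest where Gja1 was highest, with sums of 289 to 418 CPM in arterial, 435 to 599 in venous and 544 to 627 in endocardial libraries and none at 0. Ttn, Tnnt2 and Myh7 were the most abundant of them. The 10 trabecular and conduction markers summed to 2.02 to 13.1 CPM in arterial libraries, to 4.35 to 7.51 in venous ones and to 29.0 to 34.0 in endocardial ones, where Irx3 led. Nppa, Nppb and Bmp10, the defining trabecular genes of that list, had no count in endocardial libraries, and Nppb had none in any library. Gja5, a connexin of trabecular and conduction muscle, had means of 4.38 CPM in endocardial and 4.40 CPM in venous libraries, although that sum was higher in the former.

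The 14 fibroblast markers had sums of 226 to 251.3 CPM in arterial, 1492 to 1772 in venous and 1738 to 2118 in endocardial libraries. Postn, Col3a1 and Col1a2 led in venous and endocardial libraries. In arterial libraries Tnc led (112 CPM), ahead of Postn (60.5 CPM). Of the 14, 7 were called lower in arterial than in venous libraries, beside 0.76% of all tested genes. Tnc had the opposite order (112, 59.4 and 36.4 CPM), and Col1a1, Col3a1 and Dpt were higher in venous than in endocardial libraries. The 10 epicardial markers, with Wt1 as the bulk of the sum, came to 184 to 213 CPM in arterial, 157 to 186 in venous and 26.5 to 35.8 in endocardial libraries. Aldh1a2 (0.367, 7.49 and 1.46 CPM) and Tbx18 (1.75, 9.38 and 3.00 CPM) were instead highest in venous libraries. The 10 erythroid and platelet markers, led by Hbb-bs, summed to 543 to 1221 CPM in arterial, 233 to 391.7 in venous and 88.5 to 256 in endocardial libraries. The 10 leukocyte markers summed to 70.5 to 87.8 CPM in arterial, 77.7 to 96.4 in venous and 39.9 to 53.0 in endocardial libraries, with Tyrobp at 0 in arterial and endocardial libraries and Mrc1 making up most of each sum. The 8 neural and glial markers, led by Ncam1, summed to 10.4 to 12.8, 16.1 to 22.7 and 29.6 to 56.1 CPM in arterial, venous and endocardial libraries. The parts of these cell types in the connexin levels were not tested.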

How the data were processed

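The authors deposited 1 table of expected counts per gene, which per the submitters' processing notes was made with RSEM 1.2.3 after CASAVA 1.8.2 and cutadapt 1.3, on GRCm38 with Ensembl release 76. The sources used here name no aligner and no strandedness. Libraries were made from 1 ng of total RNA by amplification and sequenced as single reads, per the labels' protocols, so PCR copies are counted. Expected counts were rounded to whole numbers (45.5% of values above 0 were not whole). RSEM shares reads between similar genes.

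One fit of all 9 libraries served every contrast between populations, with the robust quasi-likelihood test of edgeR 4.0.16 (R 4.3.3), TMM scaling and a minimum count of 10. It left 17103 genes, over which p-values were adjusted (Benjamini-Hochberg, threshold 0.05). Common dispersion was 0.409. Intervals are 95% intervals from the fitted SE. Exact permutation tests used log2(CPM per kb + 0.1), or the share itself. The members, gene lists and tests were chosen with earlier results of these data known. Named genes were the members, the other connexins and pannexins, up to 4 called members of a list with the smallest p, the 5 most similar genes per member (mean log2 CPM of at least 4, without predicted genes, Y-linked genes and Xist) and up to 3 abundant markers of other cell types. Some genes under this rule are not reported here. Arterial and venous marker lists, capillary, endocardial, lymphatic and pan-endothelial lists completed the 17 lists.

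Replicate numbers equal the batch label and were read as pairing the libraries. Among libraries of the other populations, 5 of the 9 libraries correlated most with one of the same number. Deviations from the population means correlated by 0.083 to 0.165 between libraries numbered 1, by 0.036 to 0.146 between those numbered 2 and by -0.09 to 0.092 between those numbered 3. A fit with this block was an alternative. Other alternatives were RLE or no scaling, no filter, DESeq2 1.42.0, each library left out, only the populations compared, and other gene lengths.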

Additional observations from a re-analysis of the deposited data

How the results depend on the processing

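Of 236 fits of the members under other settings, 226 kept direction and side of the threshold, 8 changed sign and 2 lost a call. The lost calls were those of Gja1 between arterial and venous libraries without Venous replicate 1 or 3 (0.95 and 0.85, leave-one-out range 0.85 to 1.00). The sign changes concerned differences near 0 that were never called. Gja4 between arterial and endocardial libraries ran from -0.04 to 0.41 with 1 library left out (-0.0366 without Arterial replicate 2, -0.0415 without Endocardial replicate 1). Gja5 between venous and endocardial libraries was -0.0262 with RLE scaling or DESeq2, -0.0491 with the replicate block, and -0.24 to 0.27 with 1 library left out (-0.114 without Endocardial replicate 2, -0.241 without Venous replicate 2, -0.0169 without Venous replicate 3). Without Endocardial replicate 1 the mean per-length level of Gja4 was highest in endocardial libraries, but the arterial and endocardial libraries still overlapped. The exact permutation p was 0.0357 there, and 0.00714 to 0.0357 over the libraries left out in turn. That p is for a difference among the 3 populations and does not compare endocardial with arterial libraries. In the edgeR fit the replicate block, with the pairing it tests, changed no call of a member (Gja1 between arterial and venous libraries 0.95, adjusted p = 0.00508). In the exact permutation tests the block, added after the data were seen, ended the calls of Gja5 for its level per length (p = 0.111) and its share (p = 0.0556). These tests permute all 3 populations and do not compare arterial libraries alone with the others. In batches 1, 2 and 3 the venous minus endocardial log2 difference of Gja5 was -0.97, 0.79 and 0.06. The arterial minus endocardial one was 3.47, 4.64 and 4.51, and the arterial minus venous one 4.45, 3.84 and 4.45.

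Calls between arterial and venous libraries over the whole table numbered 183, and 439 with no filter, 356 with DESeq2 and 120 to 225 with 1 library left out. Between venous and endocardial libraries they numbered 1753, and 1130 to 1871 with 1 library left out. Mural markers called between arterial and venous libraries numbered 1, and 3 with no filter, with DESeq2 or with only these populations in the fit. Of the 5 genes most like each member, Spearman's correlation kept 2 for Gja1, 2 for Gja4, 0 for Gja5 and 3 for Gjc1, and leaving out Endocardial replicate 1 kept 3, 3, 4 and 3. The causes were not tested. With 3 libraries per population, the printed intervals are wide.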

Other observations

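The upstream windows of Gja5 and Gja4 share the run TGGGATACCGG, 11 bases long, at position -41 in Gja5 and -151 in Gja4 on the strand of each gene. Of 32851 RefSeq windows, 4 hold it on either strand, those of Dao, Gja4, Gja5 and Vps4a. The run was picked after the letters were seen, so Gja4 and Gja5 are among the 4 by construction. How many windows would hold a run of this length at random was not computed. The part of the run in the levels of these genes was not tested.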
